A study of Mus musculus with 6 samples.

Results

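Claudins are membrane proteins that span the lipid bilayer several times and polymerise into the strands of the tight junction, the seal between neighbouring epithelial cells. The combination of claudins that a cell makes sets which ions and solutes pass between cells, and members such as claudin-3 and claudin-4 mostly seal. In the mouse embryo, pluripotent cells of the epiblast form a polarised epithelium around implantation, and claudin-6 is known as a claudin of embryonic epithelia and pluripotent cells. The claudin genes described here are Cldn3, Cldn4, Cldn5, Cldn6, Cldn7, Cldn9, Cldn12 and Cldn23, chosen as named members of the family and found by their Ensembl identifiers in the mouse GRCm38 annotation. All 8 were found among the 51826 Ensembl genes of the count table.

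Total RNA from the mouse embryonic stem cell line V6.5 was sequenced after depletion of ribosomal RNA. Epiblast-like cells (EpiLC), labelled as wild type and as day 3 without Lif and without 2i, were compared with wild-type embryonic stem cells (ESC) grown in Lif and in 2i, which stands for a GSK3 inhibitor and a MEK inhibitor. Both were grown in Knockout DMEM with fetal bovine serum, and each state had 3 libraries of the same line. The labels do not say whether the replicates were separate cultures, so p-values measure the spread between these libraries, which may be technical. The title of the series refers to GRHL2, a transcription factor and regulator of epithelial genes, and the exit from naive pluripotency, and the comparison asks where claudin transcripts stand in the cells on each side of it.

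The libraries held 9710410 to 11425054 counts in EpiLC and 11499687 to 22879812 counts in ESC. Levels below are CPM, read counts brought to a common library size with edgeR's TMM scaling, and 3 counts, the limit that a count of 0 allows, were worth 0.256 to 0.300 CPM in EpiLC and 0.135 to 0.261 CPM in ESC. ESC replicate 3 stood apart from its group, at a chi-square per degree of freedom, taken across genes, of 25.7 and 26.1 against the other ESC libraries. The other ESC pair differed by 2.58, and EpiLC pairs by 2.17 to 4.11. Markers of each state followed the labels: the 5 naive ESC markers (Esrrb, Klf4, Zfp42, Tfcp2l1 and Nr0b1) summed to 41.2 to 47.1 CPM in EpiLC and 2117 to 2305 CPM in ESC, and the 4 formative epiblast markers (Fgf5, Otx2, Pou3f1 and Dnmt3b) to 1158 to 1424 CPM in EpiLC and 128 to 139 CPM in ESC. The 2 markers listed for pluripotency in both states moved in opposite directions. Pou5f1 stood at 494 CPM in EpiLC and 833 CPM in ESC, and Lin28a at 867 CPM in EpiLC and 272 CPM in ESC. By edgeR, Pou5f1 was called lower and Lin28a higher in EpiLC. Lin28a held 367, 329 and 119 CPM in ESC replicates 1 to 3. Some markers of other cell types moved with the claudins at low levels.

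The 6 trophectoderm markers summed to 10.1 to 11.6 CPM in EpiLC and 37.7 to 39.0 CPM in ESC, mostly from Tfap2c at 3.49 CPM in EpiLC and 35.7 CPM in ESC. Of the 3 tested, the simple epithelial keratin Krt7 was called higher (5.14 CPM in EpiLC and 1.11 CPM in ESC), Tfap2c lower and Gata3 neither. Hand1, not tested, had 17 counts in EpiLC and 3 in ESC. The other untested markers went the other way, with 5 counts in EpiLC and 23 in ESC for Cdx2. Elf5 had 0 counts in EpiLC and 3 in ESC. The 7 primitive and visceral endoderm markers summed to 5.88 to 6.40 CPM in EpiLC and 2.95 to 7.39 CPM in ESC. Of the 2 tested, Gata4 was called higher (4.93 CPM in EpiLC and 2.55 CPM in ESC) and Sox17 lower, while Afp had 0 counts in each library. Among those not tested, Cubn had 22 counts in EpiLC and 7 in ESC, and Gata6 had 5 in EpiLC and 20 in ESC. Foxa2 had 10 counts in EpiLC and 12 in ESC, and Ttr had 1 in each state. The 4 stratified epithelium markers, none of them tested, summed to 0.20 to 0.60 CPM in EpiLC and 0.36 to 0.87 CPM in ESC. The 6 fibroblast markers summed to 13.8 to 18.3 CPM in EpiLC and 10.1 to 13.7 CPM in ESC. Of the 5 tested, 3 were called higher: Dcn (143 counts in EpiLC and 0 in ESC), Col1a2 (3.82 CPM in EpiLC and 0.14 CPM in ESC) and Col1a1 (1.65 CPM in EpiLC and 0.58 CPM in ESC). Pdgfrb was called lower (1.81 CPM in EpiLC and 7.60 CPM in ESC), and Thy1 was not called. These calls are edgeR's, and the part of these markers in the claudin values was not tested. For Dcn, Col1a2, Col1a1 and Krt7 the EpiLC libraries alone met the filter on low counts and the ESC libraries alone did not. For Sox17 the ESC libraries alone met it and the EpiLC libraries alone did not. In bulk RNA, fewer cells of a type and less RNA per cell cannot be told apart.

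Of the 8 claudins, 7 had enough counts to be tested with edgeR's quasi-likelihood test, and 6 were called higher and 0 lower in EpiLC at an adjusted p under 0.05. Among all 14996 genes tested, 64.6% were called, 32% higher and 32.6% lower, so a call by itself is common between these states. Each EpiLC library lay above each ESC library in the 6 called claudins and below in Cldn5. Over all genes tested, 34.9% had such a gap upward and 70.2% in either direction. The median log2 fold change of the 7 tested claudins was 1.47, against 0.01 over all genes tested. Cldn6 and Cldn7 rose most, by more than a log2 fold change of 3, and 4.41% of the genes tested were called higher with a log2 fold change of at least 3. Cldn5 was not called (unadjusted p = 0.0328), and Cldn23 had too few counts to be tested. With ESC replicate 2 or any 1 EpiLC library left out, 5 were called higher, since Cldn4 lost its call. With ESC replicate 1 or 3 left out, 1 claudin, Cldn5, was called lower, and with DESeq2 and limma-voom 0 were. Leaving out ESC replicate 3, the library that stood apart, gave log2 fold changes of 3.54 for Cldn6, 3.63 for Cldn7 and 1.96 for Cldn3. They were 1.40 for Cldn9 and 0.57 for Cldn12, and each of these genes was still called by edgeR. Of the tight junction partner genes, 17 were called higher and 4 lower. In that fit 5815 of all 15296 genes tested were called higher and 5916 lower, so a call was more common than with all libraries.

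The stretches upstream of the start sites are shown for the claudins on which the results turn: Cldn6 and Cldn7, which moved almost alike, Cldn4, which dominated in ESC, and Cldn5, the tested claudin with a negative fold change. They are RefSeq promoters on GRCm38.p6, 250 bases upstream of the start on the gene's strand, or for Cldn6 the 134 of those bases that lie outside exons annotated by GENCODE. They cover chr17:23679115-23679248 on the plus strand for Cldn6, chr11:69964529-69964778 on the plus strand for Cldn7 (the first of its 2 listed starts), chr5:134946935-134947184 on the minus strand for Cldn4 and chr16:18776597-18776846 on the plus strand for Cldn5. Capitals mark matches on either strand to AACNGGTT, a core bound by grainyhead-like factors, or to CAGGTG, an E-box bound by ZEB and SNAI repressors.
Cldn6: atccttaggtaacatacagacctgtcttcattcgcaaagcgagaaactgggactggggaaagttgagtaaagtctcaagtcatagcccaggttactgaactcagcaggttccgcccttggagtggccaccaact
Cldn7: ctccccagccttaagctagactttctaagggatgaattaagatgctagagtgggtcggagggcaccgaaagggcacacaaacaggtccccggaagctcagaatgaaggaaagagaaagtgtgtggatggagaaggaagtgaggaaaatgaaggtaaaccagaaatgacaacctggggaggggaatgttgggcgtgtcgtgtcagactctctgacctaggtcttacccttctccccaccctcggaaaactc
Cldn4: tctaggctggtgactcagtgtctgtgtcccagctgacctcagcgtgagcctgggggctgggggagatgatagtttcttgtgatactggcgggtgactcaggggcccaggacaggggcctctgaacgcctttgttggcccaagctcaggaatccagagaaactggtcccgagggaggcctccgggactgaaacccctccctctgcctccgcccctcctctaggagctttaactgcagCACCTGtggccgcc
Cldn5: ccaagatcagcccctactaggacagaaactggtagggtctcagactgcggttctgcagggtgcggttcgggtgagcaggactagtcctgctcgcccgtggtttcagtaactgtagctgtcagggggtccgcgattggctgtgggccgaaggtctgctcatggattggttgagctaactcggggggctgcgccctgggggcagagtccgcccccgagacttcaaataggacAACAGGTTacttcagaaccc

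Over the whole 300 bases of each promoter, 250 before and 50 after the start, 6 of the 8 claudins had 9 promoters in the table. AACNGGTT or its reverse complement AACCNGTT occurred in 2.09% of all 32851 promoters, and among the claudins in that of Cldn5, starting 20 bases before the start site. CAGGTG or its reverse complement CACCTG occurred in 20.2% of all promoters. It was found in those of Cldn3, Cldn4 and Cldn6 and at the second start of Cldn7, and was not found in those of Cldn5 and Cldn12. In Cldn6 one match began 93 bases before the listed start, inside the annotated first exon, and the other after the start. These are matches of letters, with no measurement of binding.

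Cldn6 had the highest level per length of the family in EpiLC, where it rose strongly. The gene (ENSMUSG00000023906) lies on chromosome 17, 23679249 to 23682446, with 3 annotated exon blocks. It stood at 228, 211 and 216 CPM in EpiLC replicates 1 to 3, against 19.4, 17.8 and 15.6 CPM in ESC replicates 1 to 3. The groups were far apart compared with their spread, at 218 ± 8.96 CPM in EpiLC and 17.6 ± 1.89 CPM in ESC (SD, n = 3 each). The log2 fold change was 3.62 (SE 0.09, adjusted p = 6.38e-08 by edgeR), a 12.3-fold rise.

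Cldn7, which encodes a claudin that also lies along the lateral membrane and binds EpCAM, rose by nearly the same factor to a lower level. The gene (ENSMUSG00000018569) lies on chromosome 11, 69964779 to 69967885. Its libraries held 91.3, 79.5 and 87.9 CPM in EpiLC and 7.20, 6.61 and 6.61 CPM in ESC. No ESC library came near an EpiLC library, and the log2 fold change was 3.66 (SE 0.09, adjusted p = 6.38e-08 by edgeR).

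Cldn3 and Cldn4 are barrier-forming claudins of simple epithelia and neighbours on chromosome 5, at 134986214 to 134987472 on the plus strand and 134945119 to 134946934 on the minus strand, with 39279 bases and no annotated gene between them. Each is a gene of 1 exon. Cldn3 (ENSMUSG00000070473) stood at 24.8, 23.7 and 21.6 CPM in EpiLC and at 5.95, 5.94 and 6.26 CPM in ESC, a log2 fold change of 1.95 (SE 0.11, adjusted p = 2.33e-06 by edgeR). An antisense gene, Wbscr25, shares 40 of the 1259 exonic bases of Cldn3 and had at most 4 counts in any library.

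Cldn4 (ENSMUSG00000047501) was the claudin with the highest level per length in ESC, and its change was small. It stood at 160.2, 162 and 169 CPM in EpiLC, against 154, 133 and 109 CPM in ESC. The lowest EpiLC library lay just above ESC replicate 1, and ESC replicate 3 was the lowest of all. Its log2 fold change of 0.31 (SE 0.12, 95% interval 0.04 to 0.58) passed narrowly (adjusted p = 0.0442 by edgeR). Under other settings its adjusted p ranged between 0.00948 and 0.193. The call was lost without ESC replicate 2 (adjusted p = 0.102), without EpiLC replicate 1 (0.0894), 2 (0.0967) or 3 (0.133) and with no filter on low counts (0.193). Without ESC replicate 3 the log2 fold change was 0.18 (adjusted p = 0.0145).

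Cldn9 and Cldn6 are also neighbours. Cldn9 (ENSMUSG00000066720), known for its part in the barrier of the inner ear, lies on chromosome 17, 23682584 to 23684026, on the strand opposite to Cldn6, so that the ends of both genes face each other across 137 bases. Its levels were low, with 3.51, 3.16 and 3.56 CPM in EpiLC and 1.24, 1.30 and 1.04 CPM in ESC. The groups did not overlap, and the log2 fold change was 1.47 (SE 0.20, adjusted p = 0.000273 by edgeR). Whether reads that run past the end of Cldn6 add to these counts was not tested, and the strand setting of the counting is not given in the sources used here.

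Cldn12 (ENSMUSG00000046798, chromosome 5, 5489537 to 5514958), a widely expressed claudin whose tail lacks the usual motif for binding PDZ-domain scaffolds, rose moderately. Its libraries held 98.8, 89.4 and 83.7 CPM in EpiLC and 62.8, 58.0 and 49.3 CPM in ESC, a log2 fold change of 0.67 (SE 0.10, adjusted p = 0.000614 by edgeR).

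Cldn5 (ENSMUSG00000041378, chromosome 16, 18776847 to 18778262), the main claudin of endothelial tight junctions, was the tested claudin with a negative fold change. It had 9, 5 and 8 counts in EpiLC and 18, 32 and 23 counts in ESC, or 0.90, 0.43 and 0.71 CPM in EpiLC and 0.93, 1.44 and 2.00 CPM in ESC. ESC replicate 1 lay next to EpiLC replicate 1, and the log2 fold change of -1.04 (95% interval -1.98 to -0.11) missed the threshold (adjusted p = 0.0507 by edgeR), and other settings gave an adjusted p between 0.0194 and 0.188. Its ESC libraries alone were enough to pass the filter on low counts, and its EpiLC libraries alone were not. The call was made without ESC replicate 1 (adjusted p = 0.0194), without ESC replicate 3 (0.0489) and with no filter on low counts (0.0402). Of 7 endothelial markers, Emcn had 0 counts in each library, and Cdh5, which encodes VE-cadherin, had 2 counts in EpiLC and 0 in ESC. Of the 3 markers that were tested, 0 were called higher and 2 lower, Pecam1 and Tek (3.73 CPM in EpiLC and 12.6 CPM in ESC). Tie1 was not called (1.72 CPM in EpiLC and 1.40 CPM in ESC). Kdr, not tested, had 9 counts in EpiLC and 79 in ESC. The list summed to 8.53 to 10.7 CPM in EpiLC and 164 to 181 CPM in ESC, most of it from Pecam1 at 3.77 CPM in EpiLC and 157 CPM in ESC, which is also known in mouse ESC. The part of these markers in the Cldn5 value was not tested.

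Cldn23 (ENSMUSG00000055976, chromosome 8, 35824712 to 35826559), a claudin known from intestinal epithelium, was near the detection limit. It had 5, 3 and 9 counts in EpiLC and 0 in each ESC library, which is 9.13-fold higher in EpiLC when set against 3 counts over the ESC group. The 17 counts in EpiLC are taken as exact in this ratio, so it is not a lower limit. It did not pass the filter on low counts. With no filter it was called higher (adjusted p = 0.00293 by edgeR).

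**Figure D1:**
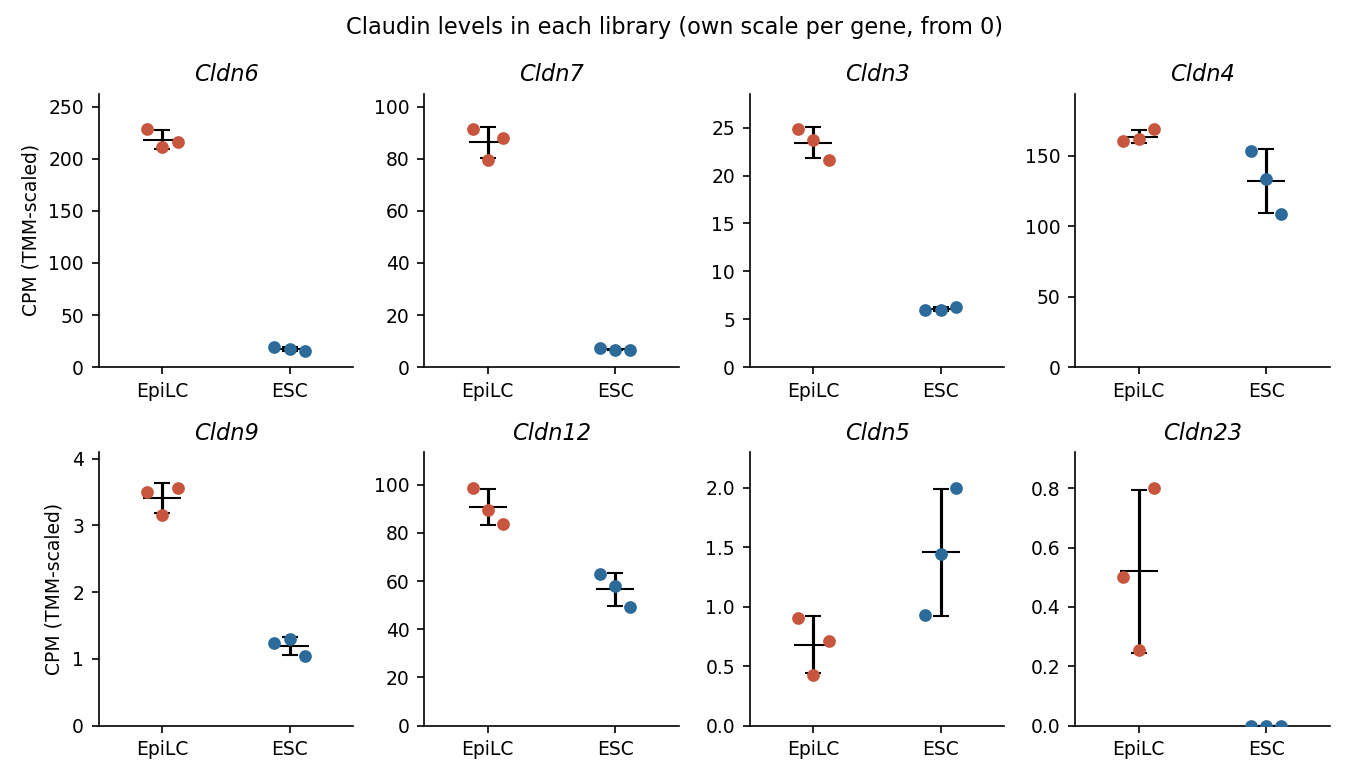
Level of each claudin in CPM (vertical axis, own scale for each gene, from 0) in the EpiLC and ESC libraries. Points are libraries, and bars are the mean and SD of 3 libraries. Cldn6 and Cldn7 in EpiLC lie far above ESC, Cldn4 is close in both states, and Cldn5 alone has its higher mean in ESC.

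Compared per length of exon, the leading claudin was Cldn6 in EpiLC and Cldn4 in ESC. In EpiLC the order of mean per-length levels was Cldn6 at 127 CPM per kilobase, Cldn4 at 90.1, Cldn7 at 44.3, Cldn12 at 21.4, Cldn3 at 18.6, Cldn9 at 2.36, Cldn5 at 0.48 and Cldn23 at 0.28 CPM per kilobase. In ESC it was Cldn4 at 72.6 CPM per kilobase, Cldn12 at 13.4, Cldn6 at 10.2, Cldn3 at 4.80, Cldn7 at 3.49, Cldn5 at 1.03, Cldn9 at 0.83 and Cldn23 at 0 CPM per kilobase. The lowest library of each member lay above the highest library of the next member in that state, except for Cldn5 and Cldn23 in EpiLC and for Cldn5 and Cldn9 in ESC, whose ranges overlapped. With the longest transcript as the gene length, Cldn7 in ESC stood at 5.10 CPM per kilobase, above Cldn3.

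The 8 members summed to 314, 295 and 304 CPM per kilobase in EpiLC and to 121, 107 and 91.0 CPM per kilobase in ESC, a ratio of means of 2.86. Without Cldn6 the sums were 177 ± 4.57 CPM per kilobase in EpiLC and 96.2 ± 13.7 CPM per kilobase in ESC, a ratio of 1.85. Cldn6 made up 41.7% ± 0.51 of the sum in EpiLC and 9.65% ± 0.32 in ESC (SD, n = 3 each). Cldn4 made up 29.6% ± 1.35 in EpiLC and 68.0% ± 2.23 in ESC, so its share was smaller in EpiLC although its own level was not. Cldn7 held 14.5% ± 0.61 in EpiLC and 3.31% ± 0.36 in ESC.

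**Figure D2:**
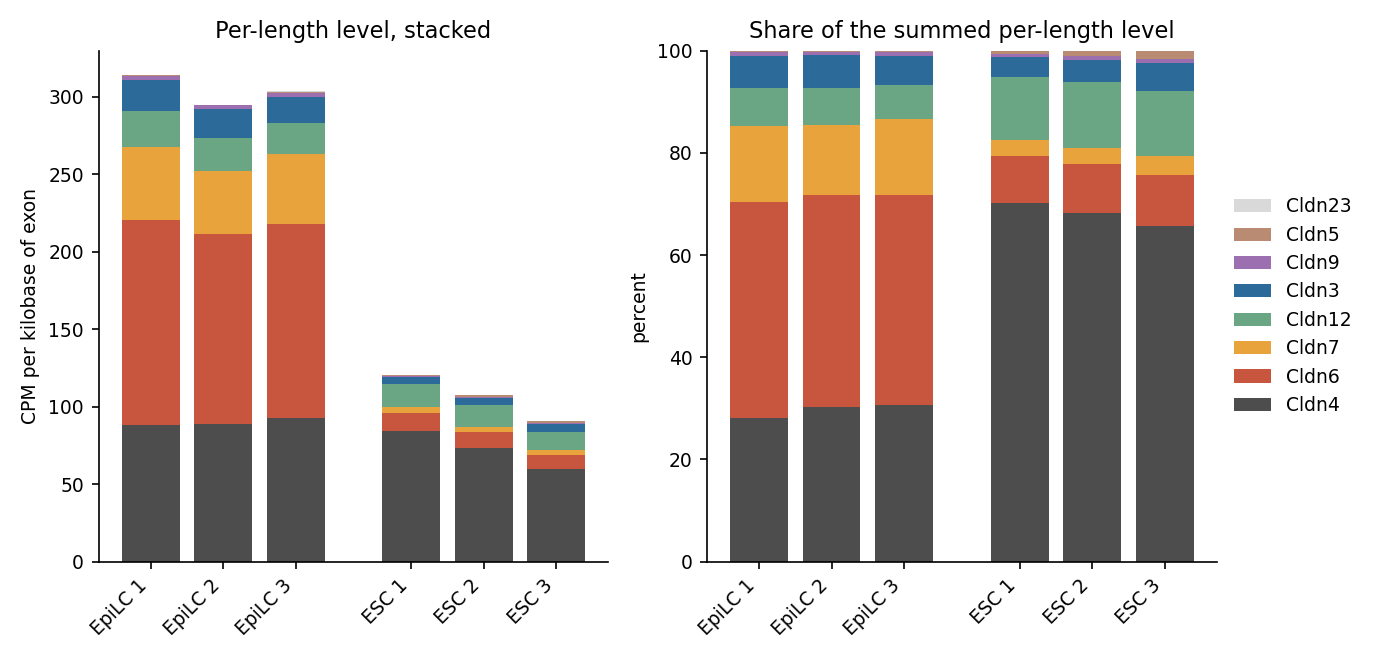
Per-length levels of the 8 claudins stacked in CPM per kilobase of exon (left) and as percent of their sum (right), for the 3 EpiLC and 3 ESC libraries. The sum is 295 to 314 in EpiLC and 91.0 to 121 in ESC, and the Cldn6 segment holds 41.7% of it in EpiLC and 9.65% in ESC.

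Ratios between members moved in the same way in each library. Cldn6 over Cldn4, per length, was 1.504, 1.38 and 1.35 in EpiLC and 0.13, 0.14 and 0.15 in ESC. For the neighbours Cldn6 and Cldn9 the ratio was 54.6, 56.0 and 50.7 in EpiLC and 13.1, 11.4 and 12.6 in ESC. For the neighbours Cldn3 and Cldn4 it was 0.22, 0.21 and 0.19 in EpiLC and 0.056, 0.064 and 0.083 in ESC. No EpiLC ratio overlapped the ESC ratios in these 3 pairs. The two-sided exact permutation test gave p = 0.1 for each, the smallest that 3 against 3 libraries allow, with an adjusted p = 0.1 over the 3 pairs. The ratios restate the fold changes of the members given above, so this test adds no separate evidence.

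The profile of Cldn7, which had the largest log2 fold change among the 8 members, was set against those of all tested genes. Likeness was the root mean square difference of log2 CPM over the 6 libraries after centring each gene on its mean. A prior count of 2, a small addition to every count, entered this log2 CPM. Cldn6, which lies on another chromosome, was the nearest gene of all, at 0.071 log2 units. Where the libraries of a state lie close together, this distance mostly follows the difference in log2 fold change. The nearness of Cldn6 to Cldn7 thus mostly restates their fold changes given above and adds no separate evidence. Among named genes outside the family, gene models left aside, the nearest were Lrrn4, a leucine-rich repeat membrane protein, at 0.085, Arl4c, a small GTPase of the ARF-like family, at 0.087, and Stbd1, a glycogen-binding protein, at 0.090. Lrrn4 held 56.2, 53.4 and 56.7 CPM in EpiLC and 4.09, 4.18 and 4.52 CPM in ESC. Stbd1 held 0.62, 0.67 and 0.61 CPM in ESC, where the prior count weighs more. Its place among the nearest without the prior count was not tested. The other called claudins were farther from Cldn7, with 0.86 for Cldn3, 1.12 for Cldn9, 1.48 for Cldn12 and 1.66 for Cldn4.

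**Figure D3:**
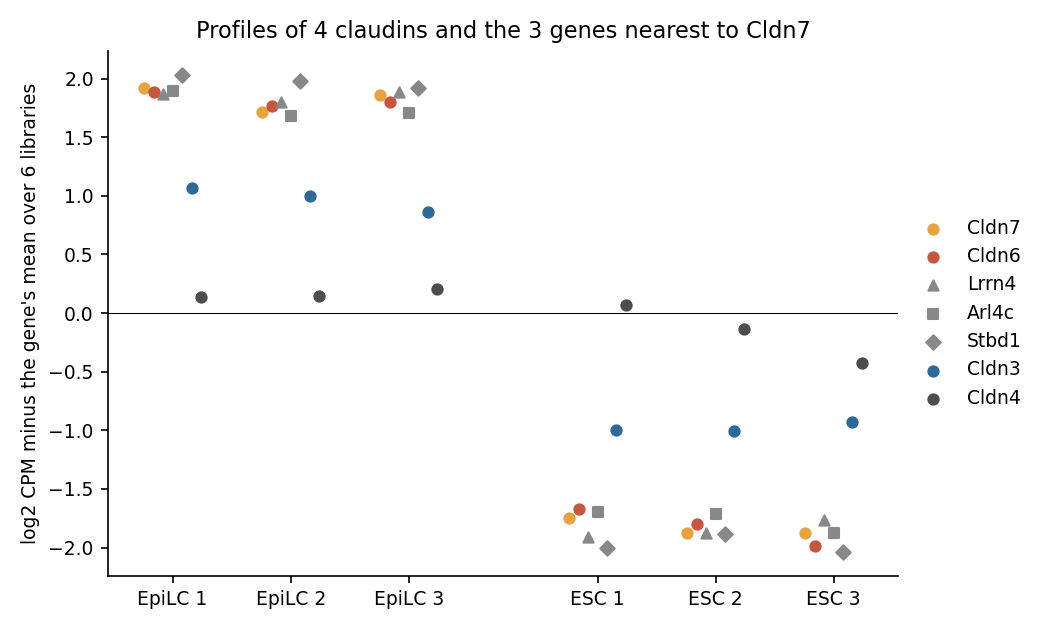
Centred profiles over the 6 libraries, as log2 CPM minus each gene's mean, for Cldn7, Cldn6, Cldn3 and Cldn4 (circles) and for Lrrn4, Arl4c and Stbd1 (other symbols). Each symbol is 1 library, drawn without the prior count that entered the distances. Cldn6 and the 3 outside genes lie close to Cldn7, Cldn3 has a smaller step between the states, and Cldn4 stays near 0.

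Outside the 8 members, 27 claudin and claudin-domain genes had a row in the table, and 3 were tested. Cldn1, the claudin of the epidermal barrier, had 36, 42 and 40 counts in EpiLC and 1, 0 and 0 counts in ESC (ratio of counts per scaled total 190.2, 95% interval 33.5 to 7574, adjusted p = 1.61e-06 by edgeR). The fitted log2 fold change, 7.03 with all libraries, leans on the prior count at so few reads, and it came to 8.57 when ESC replicate 1 was left out and 6.40 when ESC replicate 2 was left out. Cldn19, known from the kidney and from myelinating cells, fell, with 0, 0 and 2 counts in EpiLC and 31, 30 and 15 counts in ESC (ESC over EpiLC ratio 23.6, 95% interval 6.31 to 198, adjusted p = 0.000199 by edgeR). The fitted log2 fold change, -4.37, came to -7.43 with EpiLC replicate 3 left out. Cldnd1, a claudin-domain gene, rose 1.40-fold to 31.7 ± 1.52 CPM in EpiLC, against 22.5 ± 2.52 CPM in ESC (adjusted p = 0.00356 by edgeR). Cldn1 and Cldn19 passed the filter only through the state in which they are high. Of the other 24 genes, 10 had 0 counts in all libraries and none had more than 57 counts in all.

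The genes whose products work with claudins mostly rose as well. All 23 tight junction partners reported here were tested, and edgeR called 17 higher and 4 lower, leaving Tjp3 and Cgnl1 uncalled, beside 32% of all genes tested called higher and 32.6% lower. Their median log2 fold change was 0.94, against 0.01 over all genes tested. Patj, a scaffold of the Crumbs polarity complex, rose 13.1-fold, with 137, 125 and 133 CPM in EpiLC and 8.91, 9.98 and 11.6 CPM in ESC. Marveld3, a strand protein related to occludin, rose 11.4-fold to 18.2 ± 0.77 CPM in EpiLC, against 1.62 ± 0.27 CPM in ESC. Magi2, a membrane-associated scaffold, rose 10.2-fold, with 18.1, 17.3 and 18.2 CPM in EpiLC and 2.23, 1.53 and 1.39 CPM in ESC.

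Ocln, which encodes occludin, rose 2.37-fold to 72.4 ± 4.47 CPM in EpiLC, against 30.8 ± 6.86 CPM in ESC. Tjp1, which encodes the scaffold ZO-1 that holds claudin tails, rose 1.72-fold to 348 ± 19.8 CPM in EpiLC, against 202 ± 22.3 CPM in ESC. Epcam, the partner of claudin-7, rose 3.85-fold, with 431, 440.0 and 435 CPM in EpiLC and 124, 125 and 89.5 CPM in ESC. The largest falls were in Jam2, a junctional adhesion molecule (1.002, 1.11 and 0.535 CPM in EpiLC and 240.1, 249 and 256 CPM in ESC), in Ildr1, a protein of tricellular contacts (7.81 ± 0.12 CPM in EpiLC and 49.8 ± 6.16 CPM in ESC), and in Jam3 (25.1 ± 0.65 CPM in EpiLC and 61.9 ± 6.09 CPM in ESC). For Jam2 the ESC libraries alone were enough to pass the filter on low counts, and the EpiLC libraries alone were not. The adjusted p-values of these 9 genes by edgeR were between 2.23e-08 and 0.000128.

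Among factors known to act on epithelial genes, Grhl2 (59.1 ± 4.73 CPM in EpiLC and 9.38 ± 2.10 CPM in ESC), Grhl1, Ovol2 and Zeb2 were called higher, whereas Grhl3 and the repressor Zeb1 (2.87 ± 1.06 CPM in EpiLC and 30.2 ± 4.403 CPM in ESC) were called lower by edgeR. Zeb2 passed the filter on low counts through its EpiLC libraries only, and Ovol1, Snai1 and Snai2 did not pass it. With no filter edgeR called Ovol1 higher (adjusted p = 0.00401) and called neither Snai1 nor Snai2, and Ovol1 was also called in 4 of the fits with a library left out (adjusted p = 0.00124 to 0.0164).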

How the data were processed

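Per the file headers, the authors deposited raw read counts for each Ensembl gene in 1 column per library. Libraries were made with a stranded kit, per the labels' protocols. The submitters' processing notes list the build mm10 and, among tools, STAR and cutadapt as well as featureCounts and DESeq2. Versions, the strand option, the handling of multi-mapping reads and the release of the gene annotation are not stated in these sources. The 92 spike-in rows held 0 counts and were left out. GENCODE M21 on GRCm38 (mm10 is the same assembly) matched 51633 of 51826 Ensembl identifiers.

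The main test was edgeR 4.0.16 in R 4.3.3 (quasi-likelihood, TMM scaling), with the state as its term. Its scripts were tested on simulated data. These had few changed genes, the same dispersion for all genes and no library that stood apart, so they check the code and not the fit to these libraries. The filter on low counts, filterByExpr, kept genes with at least 15 counts in total. It also asked, in at least 3 libraries, for the CPM that 10 counts make at the median library size. P-values were two-sided, with Benjamini-Hochberg adjustment across every gene tested. Fold changes are EpiLC over ESC. Standard errors and 95% intervals of log2 fold changes were calculated back from the log2 fold change and the statistic of the quasi-likelihood test. Per-length levels divide CPM by the length of all merged exons. DESeq2 1.42.0 and limma-voom (limma 3.58.1) were alternatives, beside other scalings, filters, a replicate block and each library left out. Intervals of ratios are exact 95% intervals from the counts. They and the limits at 0 cover counting error only, as no molecular identifiers are recorded.

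The 8 members, the lists and the motifs were chosen with earlier results of these data known. Named are the members, each other claudin that passed the filter, the 3 partners that rose most and the 3 that fell most at 1 CPM or more, Ocln, Tjp1 and Epcam, 9 factors of epithelial genes, and the 3 genes nearest to the called member with the largest change. No member was called lower, so no nearest genes are given on that side. Protein sequences were not used here, and 1 gene first listed among the partners is not reported here.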

Additional observations from a re-analysis of the deposited data

How the results depend on the processing

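Of 96 refitted values of the 7 tested claudins, 88 kept the direction and the side of the threshold, 5 lost the call of Cldn4, 3 gained a call of Cldn5, and 0 changed sign. The log2 fold change lay between 3.54 and 3.69 for Cldn6, 3.59 and 3.73 for Cldn7, 1.88 and 2.02 for Cldn3, 1.40 and 1.54 for Cldn9 and 0.57 and 0.74 for Cldn12. With no filter on low counts, 1 claudin member was called lower, and among other claudins 5 were higher and 2 lower. With the filter at 50 counts Cldn5 and Cldn9 were not tested, 5 members were higher, and among other claudins 1 was higher and 0 lower, as fewer were tested. Leaving out 1 library at a time gave 0 to 1 members called lower, 5 to 6 called higher, and 2 to 3 other claudins called higher. Library totals in place of TMM gave 5251 genes higher and 4413 lower, against 4794 and 4891, with the median over genes shifted by 0.07. The order of per-length levels in ESC kept 6 of 8 places with the longest transcript as length, and 6 of 8 without ESC replicate 3, where Cldn9 passed Cldn5. The labels do not state that replicate numbers pair the libraries. Deviations of same-numbered libraries from their group means correlated at -0.085, -0.006 and -0.149, and EpiLC replicate 3 lay closest to ESC replicate 2 (0.142). These values cannot settle the question, as ESC replicate 3 stood apart and so shapes the deviations of the whole ESC group. The replicate block gave 4584 genes higher and 4650 lower, with 6 members higher and 0 lower. Cldn5, Cldn9 and Cldn23 rest on at most 112 counts in a state, which limits their precision.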

Other observations

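Several claudins below the filter on low counts had all their reads in 1 state, and Cldn11 had all but 1. Cldn8 had 3, 3 and 2 counts in EpiLC and 0 in each ESC library, 4.30-fold higher when set against 3 counts over the ESC group. Cldn34c1 had 4, 2 and 2 counts in EpiLC and 0 in each ESC library. Cldn14 had 0 counts in each EpiLC library and 4, 4 and 6 counts in ESC, 2.90-fold lower in EpiLC when 3 counts are set for the EpiLC group. Also at 0 in EpiLC were Cldn2, with 2, 2 and 1 counts in ESC, and Cldn18, with 1, 0 and 1. Cldn13 had 1 count, in ESC, and Cldn17 had 1 count, in EpiLC. Cldn11 had 1, 10 and 2 counts in EpiLC and 0, 0 and 1 counts in ESC, so most of its reads lay in EpiLC replicate 2. These genes were chosen after their values were seen and are given as values.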
